A study of Mus musculus with 17 samples.

Results

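WT1 hub windows are stretches of the mouse genome in which WT1 binding regions lie close together. The peaks of all 5 deposited lists were merged into 41766 regions where they overlapped or touched, and each autosome of the mm9 build was divided into fixed windows of 100 kb. A window with 10 or more merged regions was called a hub. Of the 11813 autosomal windows with at least 1 region, 685 were hubs, and they held 8660 regions, or 21.2% of the 40904 on the autosomes. The number of regions in the window chose the hubs, and that number came from all 5 lists, so counts of regions in hubs are given as a description.

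The series measured WT1 on chromatin by ChIP-seq, in which a site where immunoprecipitated DNA piles up above background is called a peak, in mice aged 7 to 8 weeks that the labels call wild type. Isolated glomeruli of BALB/cJ mice came from animals given adriamycin (doxorubicin, ADR), a drug that injures podocytes, with 4 libraries, or phosphate-buffered saline (PBS), with 4 libraries. Purified podocytes of mTmG-Nphs2cre mice, a reporter strain in which a Cre recombinase driven by the podocin gene marks podocytes, came from PBS animals with 3 libraries, from day 9 after ADR with 2 and from day 14 after ADR with 2. No day after injection is labelled for the glomeruli or for PBS podocytes, and glomeruli of 2 kidneys went into each immunoprecipitation. A glomerulus also holds endothelial and mesangial cells, while strain and tissue preparation differ together between glomeruli and podocytes. Each group is present as 1 deposited peak list made from its libraries together, so differences between groups carry no replicate error and were not tested.

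WT1 is a zinc-finger transcription factor that binds GC-rich DNA. It is required for kidney development and remains on in the mature podocyte, the epithelial cell whose foot processes form the glomerular filter, where it binds near genes of the slit diaphragm, the cytoskeleton and the basement membrane. Clusters of bound sites within a short genomic distance are a known feature of gene-rich and enhancer-rich stretches, in which several sites may serve the same gene.

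No genome or annotation of mm9 was used, so the genes under most windows are not named, and the sequences of the bound regions themselves are not shown. Gene names are known as background for 3 of the densest windows. The window chr11:98600001-98700000 lies over Thra (thyroid hormone receptor alpha), Nr1d1 (a circadian nuclear receptor that represses transcription), Msl1 (a scaffold of a histone acetyltransferase complex) and Casc3 (a core protein of the exon junction complex), and these are the 4 protein-coding genes that start from Thra to Casc3 in the gene order of GRCm38. The window chr2:167600001-167700000 lies between Cebpb (a leucine-zipper transcription factor of inflammatory responses) and Ptpn1 (a tyrosine phosphatase that acts on the insulin receptor), with no other protein-coding gene starting between them in GRCm38. The window chr2:60700001-60800000 lies at Rbms1, a gene for a protein that binds single-stranded nucleic acids. The placements were known from earlier work on these lists and were not checked against an mm9 annotation.

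The promoters of these genes are shown for the letters around the gene starts of these windows, from the RefSeq table of GRCm38.p6, which matched 5 of the 7 symbols. Each line gives the 250 bases before the gene's start on its own strand. Capitals mark matches, on either strand, to GNGTGGGNG, a form of the WT1 consensus, or to GCGGGGGCG, a site of the related EGR family, and no stretch of 9 bases can match both. Where the table lists 2 starts (Msl1 and Rbms1), the first is shown, and the second start of each held no match.
Nr1d1: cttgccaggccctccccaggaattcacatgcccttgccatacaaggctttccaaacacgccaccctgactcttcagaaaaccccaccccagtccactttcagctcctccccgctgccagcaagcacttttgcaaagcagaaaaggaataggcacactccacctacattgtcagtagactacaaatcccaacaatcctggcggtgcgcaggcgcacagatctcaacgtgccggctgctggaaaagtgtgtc
Msl1: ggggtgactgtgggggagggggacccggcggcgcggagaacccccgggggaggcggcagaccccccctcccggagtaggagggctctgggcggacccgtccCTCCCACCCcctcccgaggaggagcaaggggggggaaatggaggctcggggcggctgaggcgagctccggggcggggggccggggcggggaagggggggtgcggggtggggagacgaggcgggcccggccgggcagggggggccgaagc
Cebpb: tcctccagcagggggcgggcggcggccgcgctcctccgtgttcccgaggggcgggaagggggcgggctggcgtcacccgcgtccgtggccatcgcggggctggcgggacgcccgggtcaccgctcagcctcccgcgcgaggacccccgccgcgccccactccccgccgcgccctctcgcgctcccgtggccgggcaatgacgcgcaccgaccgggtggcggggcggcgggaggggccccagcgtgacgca
Ptpn1: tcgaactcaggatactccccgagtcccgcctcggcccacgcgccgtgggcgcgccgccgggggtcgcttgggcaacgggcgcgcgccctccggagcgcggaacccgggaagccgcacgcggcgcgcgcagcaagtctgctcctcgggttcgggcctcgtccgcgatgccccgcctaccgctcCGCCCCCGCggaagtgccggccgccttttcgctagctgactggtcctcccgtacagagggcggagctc
Rbms1: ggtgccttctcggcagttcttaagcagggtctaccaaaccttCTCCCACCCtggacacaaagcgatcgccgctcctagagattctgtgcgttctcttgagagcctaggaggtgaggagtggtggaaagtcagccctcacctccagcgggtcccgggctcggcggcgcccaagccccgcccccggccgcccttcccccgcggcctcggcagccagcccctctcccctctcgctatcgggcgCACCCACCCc
The promoter of Rbms1 held 2 matches, those of Msl1 and Ptpn1 held 1 each, and those of Nr1d1 and Cebpb held none. Of the 32851 promoters in the table, 12.7% held the first motif within 250 bases and 2.57% the second, and 14.8% held either. The GC content was 54.8% for Nr1d1, 80.4% for Msl1, 81.6% for Cebpb, 75.2% for Ptpn1 and 67.6% for Rbms1, against a median of 52.4% over all promoters. A match describes these letters alone, and whether a peak covers any of them was not determined, because the peaks are in another build.

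Most windows held few regions. The median occupied window had 2 regions, 3847 windows had 1, and the median hub had 12. At the threshold, 178 windows held exactly 10 regions and 233 held 9. The mean number of regions with a peak in day 9 podocytes was 7.74 in windows with 10 regions and 7.13 in windows with 9, so hubs shade into the windows below them. Only 23 hubs had 20 or more regions, and the densest had 28. Regions in hubs had a median gap of 1630 bp to the nearest region, against 7272.5 bp outside hubs, which follows from the rule. Their median width was 462 bp in hubs and 432 bp outside.

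**Figure D1:**
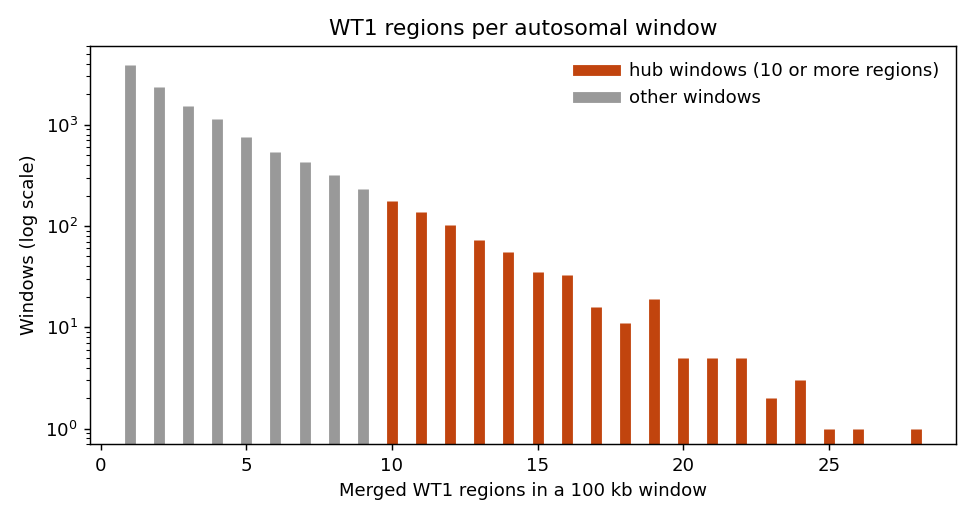
Number of autosomal 100 kb windows (log scale) by the number of merged WT1 regions they hold, with hub windows in orange and other windows in grey. Counts go down from 3847 windows with 1 region to a single window with 28; no step is seen at the threshold of 10.

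Hubs lay on every autosome. Chromosome 11 had 61, more than any other, and chromosome 16 had 19. As a share of occupied windows, hubs made up 8.71% on chromosome 19 and 8.18% on chromosome 11, and 3.90% on chromosome 13. Adjacent hubs formed longer dense stretches in places. Of the 685 hubs, 231 touched another hub, and the longest runs covered 4 windows each, at chr11:100800001-101200000 with 53 regions and at chr14:76900001-77300000 with 44.

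Hubs took a similar share of every full list, somewhat larger in the day 14 list, which is the shortest. In ADR glomeruli, 3460 hub regions had a peak, 21.9% of the autosomal regions of that list (95% Wilson interval 21.3 to 22.6), against 6117 in PBS glomeruli, 22.1% (21.6 to 22.6). In podocytes the numbers were 4926 with PBS (21.9%, 21.3 to 22.4), 6904 at day 9 (22.4%, 21.9 to 22.9) and 1613 at day 14 (25.2%, 24.1 to 26.2). The larger share at day 14 did not hold with lists of equal length. Hubs then held 1613 occupied regions at day 14, against 1703 with PBS and 1830 at day 9. Equal lengths also gave 3460 in ADR against 3850 in PBS glomeruli, and 5216 at day 9 against 4926 in PBS podocytes. The intervals cover the counting error of regions only, and neighbouring regions are not independent. The median hub held 5 occupied regions in ADR glomeruli against 9 in PBS glomeruli, and 7, 10 and 2 in podocytes with PBS, at day 9 and at day 14. Taken list by list, 53 hubs had 10 or more occupied regions in ADR glomeruli and 254 in PBS glomeruli, while 108 had so many in PBS podocytes, 354 at day 9 and none at day 14, where the highest count was 8.

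WT1 signal was also somewhat higher in hubs, by a measure the rule did not use. Fold enrichment is the authors' own value for each peak and was compared within a list only. In PBS podocytes the median fold enrichment was 6.74 in hubs and 6.21 outside, and at day 9 it was 7.26 in hubs and 6.68 outside. The same order held in the other lists, with 7.43 in hubs and 7.15 outside in ADR glomeruli, 7.95 and 7.37 in PBS glomeruli, and 6.51 and 6.19 at day 14. Of the autosomal peaks among the 1000 strongest of each list, 26.2% lay in hubs in ADR glomeruli and 30.1% in PBS glomeruli. For podocytes the shares were 29.9% with PBS, 29.6% at day 9 and 29.9% at day 14. Each of these shares was above that list's share of all regions in hubs.

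Hub regions were found in more lists than other regions. Of the hub regions, 1248 (14.4%) had a peak in all 5 lists and 2711 (31.3%) in a single list, against 10.3% and 35.4% of regions outside. Regions found in day 9 podocytes alone made up 15.8% of hub regions and 16.2% of regions outside, and those in PBS glomeruli alone 9.98% in hubs and 11.3% outside. Those in ADR glomeruli alone made up 2.86% in hubs and 3.59% outside, and those in PBS podocytes alone 2.68% in hubs and 4.24% outside. No hub region was found at day 14 alone, and outside hubs only 6 regions (0.0186%) were. A region with a peak in all 5 lists was present in 572 of the 685 hubs, 184 hubs had 3 or more, and the most in a single hub was 8. Windows with more regions hold such a region more readily. Other windows were not counted this way, so these numbers are not read as a trait of hubs.

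The densest hub was the Thra to Casc3 window, with 28 regions. It had 11 occupied regions in ADR glomeruli against 24 in PBS glomeruli. Podocytes had 19 with PBS, 19 at day 9 and 8 at day 14. All 8 regions with a day 14 peak were among those with a peak in every list, and 8 regions had a peak in a single list. Its strongest region in 4 of the 5 lists was chr11:98626815-98627598, where fold enrichment was 11.4 in ADR glomeruli and 20.1 in PBS glomeruli. With podocytes it was 30.7 for PBS, 31.5 for day 9 and 8.42 for day 14. In ADR glomeruli the strongest was chr11:98650050-98651084, at 16.8-fold, where PBS glomeruli had 15.7-fold.

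The second densest hub, chr8:34900001-35000000 with 26 regions, held a single region far above the others in podocytes. Occupied regions numbered 12 in ADR glomeruli against 16 in PBS glomeruli, while podocytes had 12 with PBS, 23 at day 9 and 8 at day 14. The region chr8:34986065-34987222 had 79.2-fold enrichment in PBS podocytes, 110-fold at day 9 and 44.6-fold at day 14, while the median of the window was 7.89, 11.5 and 7.91 in the same lists. In glomeruli the same region had 7.56-fold enrichment with ADR and 18.9-fold with PBS, and with ADR chr8:34913556-34914372 was stronger, at 17.3-fold. The third, chr4:132600001-132700000 with 25 regions, had 17 occupied regions in ADR glomeruli against 20 in PBS glomeruli, and 13, 20 and 6 in podocytes with PBS, at day 9 and at day 14. Its region chr4:132639818-132640775 was the strongest of the window in all 5 lists, from 16.1-fold at day 14 to 44.2-fold at day 9.

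**Figure D2:**
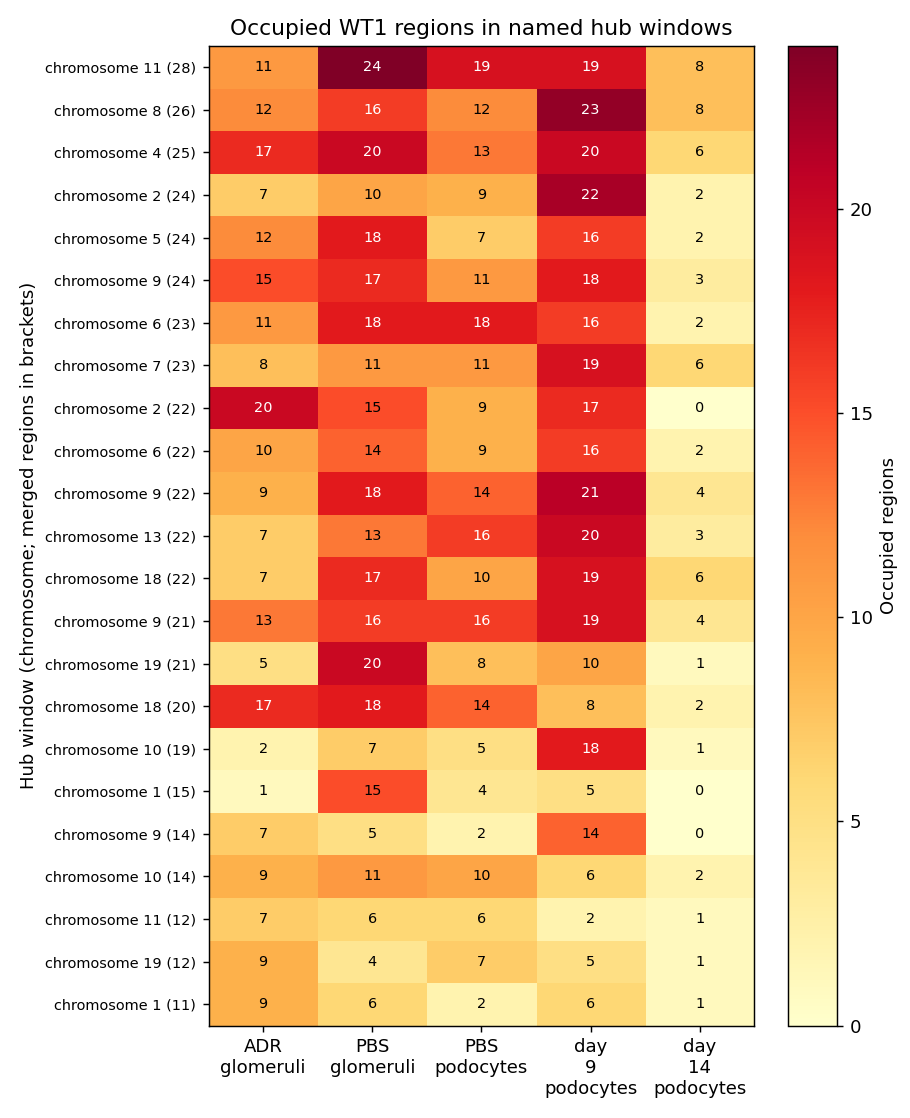
Occupied WT1 regions in the named hub windows (rows, by chromosome, with the number of merged regions in brackets, ordered by it) in each of the 5 lists (columns); the colour and the printed number give the count. The top row, on chromosome 11, has 11 in ADR and 24 in PBS glomeruli, and the row on chromosome 2 with 22 regions has 0 at day 14.

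The first comparison asked which hubs had fewer or more WT1 regions in glomeruli after ADR. Most had fewer: 604 of the 685 hubs had fewer occupied regions in ADR than in PBS glomeruli, 38 had the same number and 43 had more. A hub was said to shrink where the count after ADR was at most 0.5 times that with PBS and at least 3 lower, and to grow where it was at least 2 times as high and at least 3 higher. By this rule 322 hubs (47.0%) shrank and 2 (0.292%) grew in glomeruli. Of all autosomal windows with at least 3 occupied regions in either list, 35.3% shrank and 0.794% grew, and windows with more regions reach a difference of 3 more readily. With the full lists, the ratio in hubs was close to that elsewhere. Hubs had 0.566 times as many occupied regions in ADR as in PBS glomeruli, and other windows 0.571 times. With lists of equal length, hubs held 3460 occupied regions in ADR glomeruli and 3850 in PBS glomeruli. By that measure fewer of the ADR regions than of the PBS regions lay in hubs. The share of PBS regions with an ADR peak was 47.7% in hubs (46.5 to 49.0) and 46.8% outside (46.1 to 47.5), a difference of 0.915 percentage points (-0.502 to 2.33). With lists of equal length this difference was 1.89 points (0.119 to 3.65). With hubs chosen from the podocyte lists alone, so that the glomerular lists had no part in the choice, these shares were 47.8% and 46.9%. Over all autosomal regions the share was 47%. In the other direction, 84.4% of ADR regions in hubs and 82.0% outside had a PBS peak, with 82.5% over all autosomal regions. With both lists cut to equal length, 123 hubs shrank and 46 grew, so the raw counts move with the length of the lists. Here and in the comparisons below, counts of windows with fewer, equal or more regions were made for hubs only. So were counts of windows that shrink or grow at equal length. No share over all windows stands beside these counts, so they are not read as a trait of hubs.

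Individual hubs departed widely from this common ratio. The middle 50% of hubs lay between 0.375 and 0.75 times the PBS count, and the full range was 0 to 2.25 times. The PBS count was then multiplied by the list-wide ratio of 0.569. By the same fold rule, 71 hubs (10.4%) fell short of that expectation and 33 (4.82%) exceeded it. The shares over all windows tested were 2.8% and 2.7%. Windows with more regions reach a difference of 3 more readily here too, so these shares do not show a trait of hubs. The largest fall was on chromosome 19, in the window chr19:7200001-7300000, with 5 occupied regions in ADR glomeruli against 20 in PBS glomeruli. Its region at chr19:7209831-7211096 was found in every list, at 20.3-fold in ADR glomeruli and 17.1-fold in PBS glomeruli, the highest value of the window in ADR glomeruli and in PBS glomeruli. The window chr1:135100001-135200000 had 1 occupied region in ADR glomeruli against 15 in PBS glomeruli, and the region with a peak in both, chr1:135119036-135119731, had 8.92-fold enrichment with ADR and 18.4-fold with PBS. The Thra to Casc3 window followed, with 11 against 24. No ADR peak lay in 11 hubs, a count made for hubs only. One of them, chr9:110600001-110700000, picked out after its values were seen, had 0 in ADR glomeruli against 13 in PBS glomeruli, the same difference.

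By raw counts, gains in glomeruli were few and small, with an ADR list shorter than the PBS list. At equal length 46 hubs grew, and 33 exceeded the list-wide ratio. The largest difference, of 5 regions, was shared by 2 hubs. The window between Cebpb and Ptpn1 had 20 occupied regions in ADR glomeruli against 15 in PBS glomeruli. That gain of 5 was below 2-fold, but it stood 11.5 regions above what the list-wide ratio gave. Among its regions, chr2:167626062-167626518 had 19.2-fold enrichment in ADR glomeruli and 8.03-fold in PBS glomeruli, and chr2:167653668-167654209 had 17.6-fold and 5.37-fold. Others ran the opposite way, as chr2:167696874-167697508 with 5.57-fold in ADR and 21.6-fold in PBS glomeruli. Fold values of the 2 lists have different backgrounds and are set side by side without a test. The 2 hubs that met the fold rule for growing were chr19:57000001-57100000, with 9 in ADR and 4 in PBS glomeruli, and chr17:35800001-35900000, with 6 and 3, which was picked out after its values were seen. The window chr1:137600001-137700000, with 9 in ADR and 6 in PBS glomeruli, also differed by 3. So did chr11:114700001-114800000, with 10 and 7, which was likewise picked out after its values were seen.

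At day 9 the picture in podocytes was the reverse in count. Of the 685 hubs, 560 had more occupied regions at day 9 than in PBS podocytes, 71 had equal numbers and 54 had fewer. By the fold rule 110 hubs (16.1%) grew and 1 (0.146%) shrank, close to the 15.5% and 0.221% of all windows tested. Hubs held 1.40 times as many occupied regions at day 9 as in PBS podocytes, against 1.36 times outside. Of the regions present with PBS, 90.9% (90.1 to 91.7) in hubs and 85.9% (85.4 to 86.4) outside were found at day 9, a difference of 4.99 points (4.02 to 5.92), with 87% over all autosomal regions. With hubs chosen from the glomerular lists alone, the shares were 92.1% and 86.2%. PBS podocyte regions were also cut into quartiles of fold enrichment. In the weakest quartile 76.7% in hubs and 70.9% outside were found at day 9, and in the second 85.7% and 79.9%. In the third the shares were 97.7% and 94.6%, and in the strongest 99.9% and 99.6%. Of day 9 regions, 64.9% in hubs and 63.2% outside had a PBS peak, with 63.6% over all autosomal regions. Against the list-wide ratio, 5 hubs (0.730%) fell short and 30 (4.38%) exceeded it. Both shares were below the 2.47% and 5.85% of all windows tested. With lists of equal length 15 hubs shrank and 21 grew.

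The largest rises at day 9 over PBS podocytes were in 3 windows. The Rbms1 window had 22 occupied regions at day 9 and 9 in PBS podocytes, with a highest fold enrichment of 54.4 at day 9 and 32.2 with PBS. The window chr10:6500001-6600000 had 18 at day 9 and 5 in PBS podocytes. Its region chr10:6589976-6590782 led in both lists, with 69.0-fold enrichment at day 9 and 36.8-fold with PBS. Of the 19 regions of that window, 10 were found in a single list. The window chr9:48500001-48600000 had 14 at day 9 and 2 in PBS podocytes, and in glomeruli it had 7 with ADR against 5 with PBS. It had more occupied regions after ADR in both preparations.

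Losses at day 9 were smaller. The window chr18:36000001-36100000 had 8 occupied regions at day 9 and 14 in PBS podocytes, chr10:81000001-81100000 had 6 and 10, and chr11:101100001-101200000 had 2 and 6. The first of these had 17 occupied regions in ADR glomeruli against 18 in PBS glomeruli. The last was the single hub that met the fold rule for shrinking at day 9.

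Regions new at day 9 were mostly weak. In hubs, 2426 day 9 regions had no peak in PBS podocytes, and their median fold enrichment was 5.28, against 10.2 for the 4478 day 9 regions that were shared. Of the new regions, 1049 (43.2%, 41.3 to 45.2) had a peak in a glomerular list, against 39.6% (38.6 to 40.6) of the new regions outside hubs. Of the 448 hub regions with a PBS podocyte peak and none at day 9, 48.2% (43.6 to 52.8) had a glomerular peak, against 44.8% (42.9 to 46.8) outside hubs, and their median fold enrichment was 4.49.

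By day 14 nearly every hub had fewer WT1 regions than with PBS. Of the 685 hubs, 680 had fewer occupied regions at day 14, 5 had equal numbers and none had more. Over all autosomal regions, there were 0.285 times as many occupied regions at day 14 as with PBS. The fold rule was met by 555 shrinking hubs (81.0%) against 63.7% of all windows tested, and by 0 growing hubs, against 0% of windows. With lists of equal length, 18 hubs shrank and 9 grew. In 72 hubs no region had a day 14 peak, again a count made for hubs only. Hubs held 0.327 times as many occupied regions at day 14 as with PBS, against 0.273 times outside. With lists of equal length, hubs held 1613 occupied regions at day 14 and 1703 with PBS, so by that measure fewer of the day 14 regions than of the PBS regions lay in hubs. Of PBS podocyte regions, 32.1% (30.8 to 33.4) in hubs and 26.1% (25.4 to 26.7) outside had a day 14 peak, a difference of 5.99 points (4.54 to 7.45), with 27.4% over all autosomal regions. The shares were 32.7% and 26.6% with hubs chosen from the glomerular lists alone. Of day 14 regions, 98.0% in hubs and 95.6% outside had a PBS peak, with 96.2% over all autosomal regions.

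The share of PBS podocyte regions found at day 14 was higher in windows with more regions. In windows with 1 region, 21.2% of PBS podocyte regions had a day 14 peak (19.4 to 23.0), in windows with 4 to 6 regions 26.9% (25.8 to 28.0), in windows with 10 to 12 regions 31.5% (29.8 to 33.4), in windows with 13 to 16 regions 31.2% (29.0 to 33.5) and in windows with 17 or more 35.7% (32.3 to 39.1). The median PBS fold enrichment was 6.05 in windows with 1 region and 7.38 in those with 17 or more. At day 14, within each quartile of PBS signal, hubs and other windows differed by less than over all regions together. At day 9 this did not hold in every quartile. Whether signal accounts for the higher share was not tested. Within the strongest quartile of PBS podocyte regions, 81.2% (79.2 to 83.1) in hubs and 76.5% (75.2 to 77.7) outside had a day 14 peak. In the weakest quartile the shares were 1.30% (0.773 to 2.16) in hubs and 1.16% (0.892 to 1.52) outside, in the second 5.01% and 5.90%, and in the third 25.2% and 24.9%.

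The 3 windows named for their falls at day 14 had 16 or more PBS podocyte regions. The window chr6:52100001-52200000 had 2 occupied regions at day 14 and 18 in PBS podocytes, where its median fold enrichment with PBS was 5.00, and it had 16 at day 9. The window chr13:63300001-63400000 had 3 at day 14 and 16 with PBS, and chr9:63800001-63900000 had 4 and 16, a fall of 12 that 3 other hubs shared. The window between Cebpb and Ptpn1 had 0 at day 14 and 9 in PBS podocytes, and none of those 9 exceeded 9.81-fold with PBS. At the other end, 24 hubs (3.50%) exceeded the list-wide ratio and 1 fell short. The shares over all windows tested were 0.953% and 0.0318%, and windows with more regions reach a difference of 3 more readily. The chromosome 8 window, with 8 at day 14 and 12 in PBS podocytes, was 1 of the 3 farthest above the list-wide ratio.

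**Figure D3:**
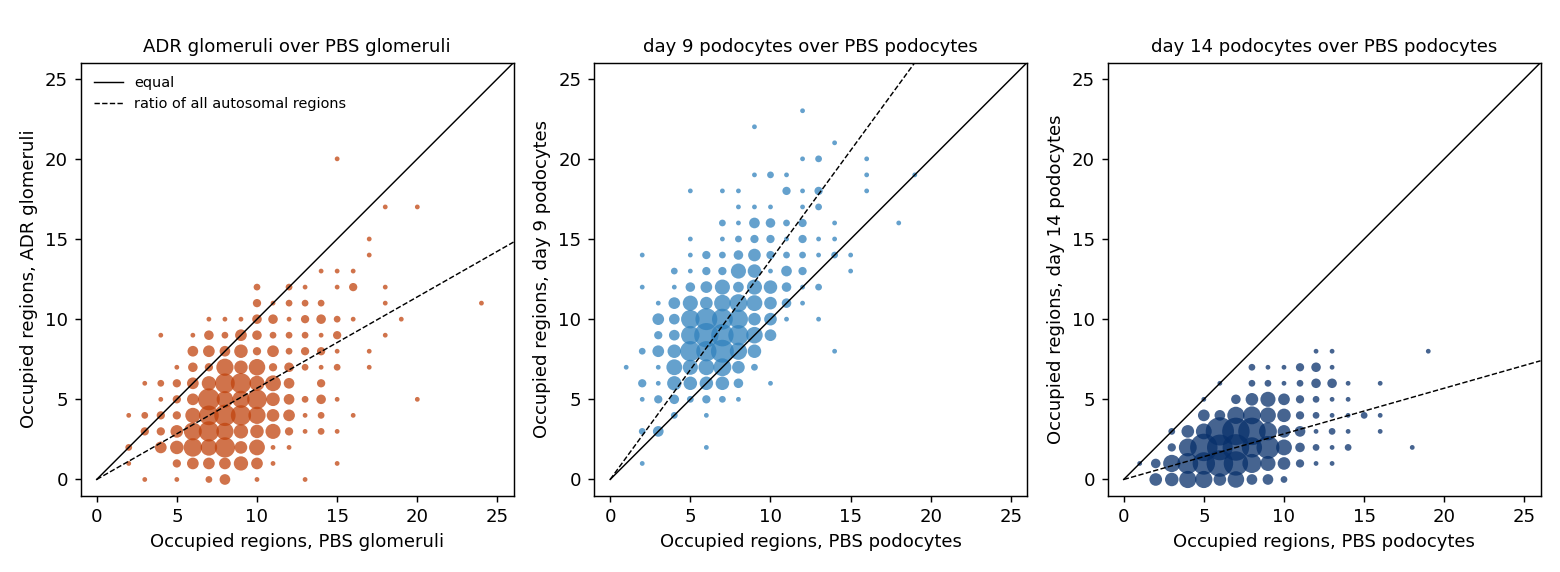
Occupied regions per hub window after ADR (vertical axis) against PBS (horizontal axis) for glomeruli, day 9 and day 14 podocytes; the area of a point is proportional to the number of hubs with that pair of counts, the solid line marks equal counts and the dashed line the ratio over all autosomal regions (0.569, 1.37 and 0.285). No hub lies above the solid line at day 14, while 560 do at day 9 and 43 in glomeruli.

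Between the ADR times, all 685 hubs had fewer occupied regions at day 14 than at day 9, and 658 (96.1%) met the fold rule for shrinking, against 78.7% of all windows tested, while 0 grew. With lists of equal length, 20 shrank and 4 grew. Against the list-wide ratio, 3 hubs (0.438%) fell short and 20 (2.92%) exceeded it, compared with 0.0703% and 0.656% of all windows tested. Windows with more regions reach a difference of 3 more readily. Of day 9 regions, 23.4% in hubs had a day 14 peak, which was 3.34 points (2.23 to 4.47) more than outside, with 20.8% over all autosomal regions, and with lists of equal length the order turned round, to 75.2% and 78.2%. Hubs kept 0.234 times the day 9 number and other windows 0.201 times. Every one of the 1613 hub regions with a day 14 peak also had a day 9 peak, against 99.8% over all autosomal regions, and 1248 of them (77.4%) had a peak in all 5 lists, against 69.3% of day 14 regions outside hubs. The largest fall was in the Rbms1 window, with 2 at day 14 and 22 at day 9, followed by 6 windows with a fall of 17 each, among them the window between Cebpb and Ptpn1, with 0 and 17, and chr9:118800001-118900000, with 4 and 21. The comparisons of day 9 and of day 14 with PBS share the PBS podocyte list, and that of day 14 with day 9 reuses both ADR lists.

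**Figure D4:**
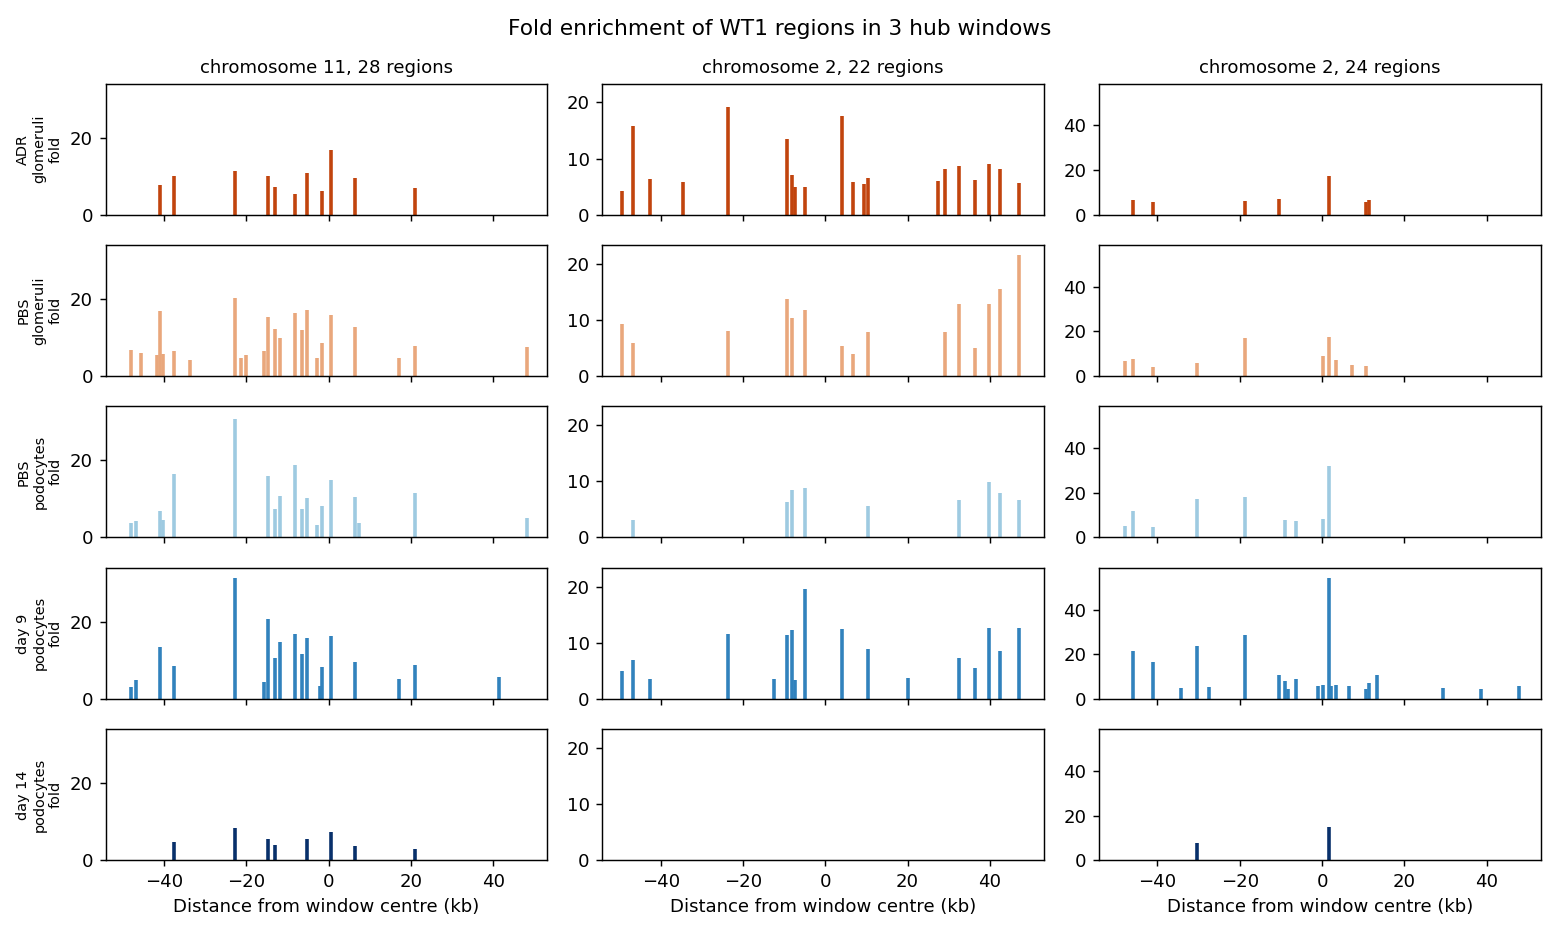
Fold enrichment of each WT1 region (vertical axis, the authors' value) by its distance from the window centre in kb, in the Thra to Casc3 window, the window between Cebpb and Ptpn1 and the Rbms1 window (columns) for the 5 lists (rows). The middle column is empty at day 14 and has 20 regions in ADR glomeruli, and the right column has 22 regions at day 9 and 2 at day 14.

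Within hubs, the strong regions of a window were found again after ADR more often than the weak ones, in glomeruli and at both podocyte times. The same order held outside hubs, so it is not a trait of hubs. There, from the weakest to the strongest quartile of PBS signal, the share found again went from 32.1% to 68.2% in ADR glomeruli. At day 9 the share outside hubs went from 70.9% to 99.6%, and at day 14 from 1.16% to 76.5%. The lists after ADR differ in length, so the levels and slopes of the 3 comparisons were not compared. When the regions of each hub were ranked by fold enrichment with PBS, the top region had a peak in ADR glomeruli in 554 of 685 hubs (80.9%, 77.8 to 83.6), the fifth in 42.6% (38.8 to 46.4) and the weakest in 24.7% (21.6 to 28.0). In podocytes the top region was found at day 9 in 683 of 685 hubs (99.7%) and the weakest in 77.8% (74.5 to 80.7). At day 14 the top region was found in 572 hubs (83.5%, 80.5 to 86.1), the second in 57.7% (54.0 to 61.4), the fifth in 15.7% and the weakest in 2.19% (1.33 to 3.59). The number of hubs with a region to rank goes down from 685 at the top rank.

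**Figure D5:**
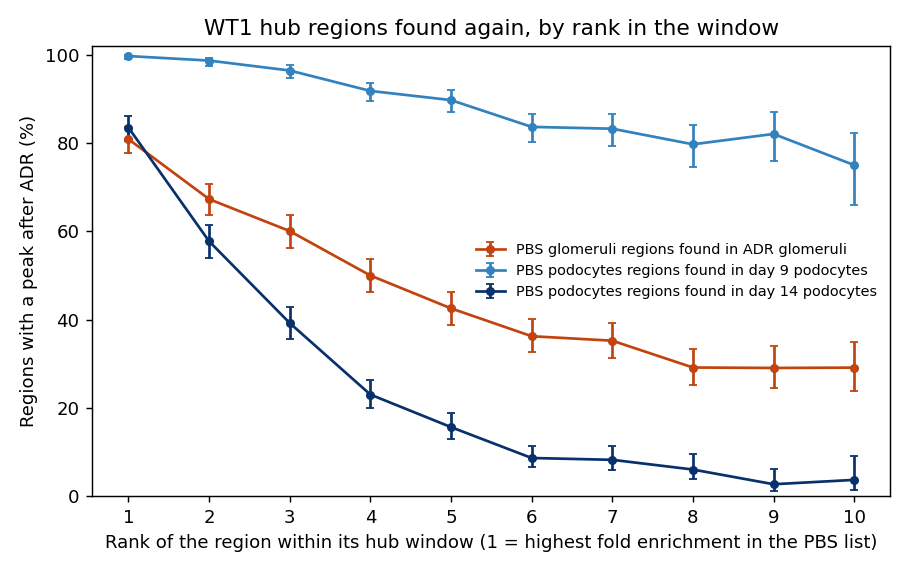
Percentage of PBS regions with a peak after ADR, by the rank of the region within its hub window (1 is the highest fold enrichment in the PBS list), for ADR glomeruli, day 9 and day 14 podocytes; bars are 95% Wilson intervals. The day 9 line stays above the others, the glomerular line goes from 80.9% at rank 1 to 29.1% at rank 10, and the day 14 line from 83.5% to 3.70%.

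In glomeruli, hubs stood above other windows in the strongest quartile of PBS signal and below them in the other quartiles. In the strongest quartile of PBS glomerular regions, 73.6% (71.6 to 75.5) in hubs and 68.2% (66.9 to 69.4) outside had an ADR peak. In the third quartile it was 49.4% in hubs and 52.1% outside, in the second 32.0% and 36.9%, and in the weakest 26.2% and 32.1%. Hub regions without an ADR peak had a median PBS fold enrichment of 6.60, against 11.3 for the shared ones, and 73.0% of them had a podocyte peak, against 68.2% outside hubs. The 541 hub regions with an ADR peak and no PBS peak had a median of 5.82-fold, and 54.2% of them (49.9 to 58.3) had a podocyte peak, against 47.7% (45.6 to 49.8) outside hubs.

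The changes in glomeruli and in podocytes were set side by side over the 685 hubs. The ratio of ADR to PBS counts in glomeruli and the ratio of day 9 to PBS counts in podocytes had a Spearman correlation of -0.0572, and with the day 14 ratio it was 0.0765. These are descriptions across windows with small whole-number counts, whose regions come from the same 5 lists. Of the 322 hubs that shrank in glomeruli, 59 (18.3%) grew at day 9 and 267 (82.9%) shrank at day 14. Of the 361 that did neither in glomeruli, 51 (14.1%) grew at day 9 and 286 (79.2%) shrank at day 14. The hubs that shrank in glomeruli and grew at day 9 made up 8.61% of all hubs, against 5.37% of windows tested in both preparations. Hubs, with more regions, reach a difference of 3 more readily than those windows.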

How the data were processed

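WT1 was profiled in 15 immunoprecipitations and 2 inputs. The submitters' processing notes name Bowtie 0.12.7, MACS2 and the mm9 build. How libraries were combined, which control was used and at what cutoff is not given in the sources used here. There was 1 narrowPeak list per group, of 16634 peaks for ADR glomeruli and 29082 for PBS glomeruli, and of 23402, 31949 and 6694 for podocytes with PBS, at day 9 and at day 14. Fold enrichment, a ratio over background, and −log10 p and q are the authors' deposited values per peak. The deposited integer score entered no result. Library read totals were not used here, so depth is unknown.

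Merged regions were assigned to 100 kb windows by midpoint, and a region was occupied in a list when it held at least 1 of its peaks. Shares carry 95% Wilson intervals, and differences of shares Newcombe intervals. Coordinates are 1-based, mm9. Named windows were the 10 with most regions, ties included, and in each of 4 comparisons the 3 largest falls and rises. Sentences name the leading ones, and further windows are marked where they were picked out after their values were seen. The members, lists and rules were chosen with earlier results of these data known. Gene-list occupancy, genomic location and motifs of the regions were planned only with an mm9 annotation and were not run. Merging and window counting were tested on simulated lists and recovered all simulated regions and hubs. Intervals used scipy 1.17.1, tables pandas 2.3.3 with numpy 2.4.6 under Python 3.11.15, and figures matplotlib 3.10.9.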

Additional observations from a re-analysis of the deposited data

Results flagged for a closer look

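The number of occupied hub regions moved in opposite directions in the 2 preparations, at 0.566 times the PBS number in ADR glomeruli and 1.40 times at day 9 in podocytes. With 1 list per group the difference was not tested. The ratios outside hubs were 0.571 and 1.36, and the day of the glomerular samples is not given in the labels.

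In 59 hubs the count met the fold rule for shrinking in ADR glomeruli and for growing in day 9 podocytes, which was likewise not tested. They made up 8.61% of all hubs, against 5.37% of windows tested in both preparations. Windows with more regions reach a difference of 3 more readily.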

How the results depend on the processing

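No paired analysis was possible because the libraries of a group share 1 list, which also prevented leaving out a replicate. Of 68 alternative values, 32 stayed within the interval of the reported difference or near the reported count, 35 moved and 1 reversed; the cause of each move was not tested unless the setting itself gives it.

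A shift of the windows by 50 kb left 657 hubs with 8360 regions. A minimum of 8 regions gave 1234 hubs with 13285 regions, a minimum of 12 gave 368 with 5351, and a −log10 q of at least 10 gave 203 with 2391, as fewer or more regions qualify by construction. The podocyte lists alone gave 426 hubs with 5338 regions and the glomerular lists alone 379 with 4620.

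Counts of changing hubs depend on list length, and at equal length they were made for hubs only, without a share over all windows. With the longer list cut to the length of the shorter by the deposited p-value, 123 hubs shrank and 46 grew in glomeruli, 15 shrank and 21 grew at day 9, 18 shrank and 9 grew at day 14 against PBS, and 20 shrank and 4 grew at day 14 against day 9. Relative to the list-wide ratio, 71 shrank and 33 grew in glomeruli, 5 and 30 at day 9, 1 and 24 at day 14 against PBS, and 3 and 20 at day 14 against day 9. With peak summits counted, 1 hub grew in glomeruli.

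Differences between hubs and other windows are given in percentage points. For PBS glomerular regions with an ADR peak, equal lengths gave 1.89 (0.119 to 3.65), against 0.915 as reported. That value stayed within the reported interval of -0.502 to 2.33. The following values moved. For ADR glomerular regions with a PBS peak, reported at 2.33 points, the stricter q gave 5.34, equal lengths 9.31 and hubs from the podocyte lists 4.61. With equal lengths, PBS podocyte regions found at day 9 gave 6.91, day 14 regions found with PBS 8.98 and day 14 regions found at day 9 8.20. Hubs from the glomerular lists gave 7.22 for day 9 regions found with PBS, reported at 1.65, and 5.07 for day 9 regions found at day 14. The reversed value was the share of day 9 regions found at day 14, reported at 3.34 points, which was -2.96 (-5.30 to -0.698) with both lists at equal length.

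Depth could not be judged, since read totals were not used here, and a weak region without a peak in a short list is not shown to lack WT1.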

Other observations

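The X chromosome was outside the definition of hubs. It held 6 windows with 10 or more merged regions, and the most in any of them was 15.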
